A study of Homo sapiens with 13 samples.

Results

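Surfactant and alveolar type II genes were followed in H1975 cells, an established human cell line of non-small cell lung cancer (NSCLC), through 48 h in starvation medium without EGF. The 10 genes were chosen by name as products that define the alveolar type II cell: NKX2-1, SFTPA1, SFTPA2, SFTPB, SFTPC, SFTPD, NAPSA, CTSH, LAMP3 and ABCA3. The rule itself uses names and no measured difference, although the genes were picked with earlier results of these data known. Where a symbol had several probesets, the probeset with the highest mean over the arrays was kept. Of the 10 genes, 9 had a probeset under their symbol in the array's annotation, among 39937 features in all. ABCA3, the lipid transporter of the lamellar body, had none and has no value here. A further gene, SFTPA2, was never above 0 on any array and was left out of the tests, so that 8 members were tested among 12764 named features.

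RNA was hybridised to 13 GeneChip Human Gene 2.0 ST arrays. The cells had been starved overnight in DMEM without FCS, and all groups share this pretreatment. They were then kept in starvation medium and harvested after 0 h (3 arrays), 0.5, 1, 2, 4 and 6 h (1 array each), 24 h (2 arrays) and 48 h (3 arrays). This is the control arm of a study on stimulation with EGF, and the stimulated arm was not analysed here, so no effect of EGF is given. H1975 is a single tumour line and not a primary alveolar cell, and no group without starvation was measured. The time in starvation medium is also time in culture, and starvation and culture time cannot be told apart. Values are SCAN values, in which each array is standardised on its own and a value near 0 is the level of background. Differences in these units are not log2 fold changes, and levels of different probesets are not set against each other. Where differences are ranked over features, the rank is in SCAN units and is no ranking of fold changes. The array medians lay between 0.0621 and 0.0798. The first array at 0 h correlated at 0.982 and 0.983 with the other 0 h arrays, against 0.996 between those. The 2 h array lay outside the range of the remaining arrays up to 6 h for NAPSA, CTSH, LAMP3 and NKX2-1, and inside it for the rest. The paper excluded arrays seen as outliers but does not name them. The main results keep all 13 arrays, which may include some that the paper excluded. Results are also given over 11 arrays, without the first 0 h array and the 2 h array. That these are arrays the paper excluded is an assumption. The 2 h array is alone at its time and enters no comparison, so leaving it out changes no difference or p-value. As a check of the label, 5 epithelial genes (EPCAM, KRT7, KRT8, KRT18 and KRT19) lay between 0.684 and 3.00 on every array. Of the markers of blood, endothelial and fibroblast cells, CD14 and VWF could be tested and lay between -0.0678 and 0.156.

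Alveolar type II cells make pulmonary surfactant, the film of lipid and protein that lowers surface tension in the alveolus. Its hydrophobic proteins SP-B and SP-C are cut from larger precursors by proteases such as napsin A (NAPSA) and cathepsin H (CTSH) and are stored with lipid in lamellar bodies, whereas SP-A and SP-D are collectins of innate immunity. NKX2-1, also called TTF-1, is the homeodomain factor that drives many of these genes, and together with napsin A it is a diagnostic marker of lung adenocarcinoma.

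The promoters of NAPSA and SFTPA1, the members with the largest differences, are shown here together with that of SFTPA2, the near-identical neighbour of SFTPA1 that was not measured above 0. The windows are from RefSeq on GRCh38.p14, 300 bases each, with 250 bases before and 50 bases from the annotated start site on, and are written on the strand of the gene. Windows of 8 of the 10 members were used, 12 windows in all, and no window of LAMP3 or SFTPC was searched. Capitals mark the letters of 3 motifs searched on both strands: CTCAAG, a core that NKX2-1 binds, TGTTTAC, a core of forkhead factors, and TATAAA, the TATA box. A match on the opposite strand appears as CTTGAG or GTAAACA, and no 2 matches in these windows overlapped.
SFTPA1, chr10:79610689-79610988, plus strand: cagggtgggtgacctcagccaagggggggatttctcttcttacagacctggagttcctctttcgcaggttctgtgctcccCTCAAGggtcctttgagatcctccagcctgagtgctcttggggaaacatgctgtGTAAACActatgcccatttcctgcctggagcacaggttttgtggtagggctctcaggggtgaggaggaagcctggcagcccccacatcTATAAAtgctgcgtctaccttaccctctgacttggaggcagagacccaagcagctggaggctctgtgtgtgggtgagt
SFTPA2, chr10:79560358-79560657, minus strand: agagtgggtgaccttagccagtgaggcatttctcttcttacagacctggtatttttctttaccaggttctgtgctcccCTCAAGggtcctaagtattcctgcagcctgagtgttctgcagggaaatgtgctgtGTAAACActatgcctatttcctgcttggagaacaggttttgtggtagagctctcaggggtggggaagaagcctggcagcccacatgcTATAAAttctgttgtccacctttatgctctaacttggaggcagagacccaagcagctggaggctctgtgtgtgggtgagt
NAPSA, chr19:50369253-50369552, minus strand: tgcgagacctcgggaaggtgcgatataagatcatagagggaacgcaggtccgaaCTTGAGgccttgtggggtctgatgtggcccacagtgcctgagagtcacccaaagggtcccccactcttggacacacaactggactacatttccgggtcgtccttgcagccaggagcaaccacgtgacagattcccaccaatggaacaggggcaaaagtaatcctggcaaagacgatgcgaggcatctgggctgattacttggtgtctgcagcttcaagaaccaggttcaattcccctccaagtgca
NAPSA, second start site, chr19:50365590-50365889, minus strand: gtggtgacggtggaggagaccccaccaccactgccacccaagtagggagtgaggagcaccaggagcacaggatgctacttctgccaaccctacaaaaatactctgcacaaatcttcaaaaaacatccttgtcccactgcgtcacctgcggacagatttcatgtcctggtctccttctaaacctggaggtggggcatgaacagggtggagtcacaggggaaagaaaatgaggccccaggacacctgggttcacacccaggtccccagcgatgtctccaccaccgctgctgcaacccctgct

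The SFTPA1 and SFTPA2 windows were identical at 262 of 304 aligned positions (86.2%) and held the same 3 matches in the same order. In SFTPA1 the CTCAAG match began 170 bases, the forkhead match 116 bases and the TATA box 28 bases before the start site. In SFTPA2 they began 172, 117 and 30 bases before it. The first NAPSA window held CTCAAG on the opposite strand, 196 bases before the start site, and the second held none of the 3 motifs. One of the NKX2-1 windows held TGTTTAC 130 bases before and CTCAAG 23 bases after its start site. The windows of SFTPB, SFTPD, CTSH and ABCA3 and the other windows of SFTPA2 and NKX2-1 held none of them, which says only that these letters are not there. Of 35116 promoter windows in the table, 12.4% held CTCAAG, 3.42% TGTTTAC and 11.5% TATAAA, so that a match by itself is common for the first and the last.

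**Figure D1:**
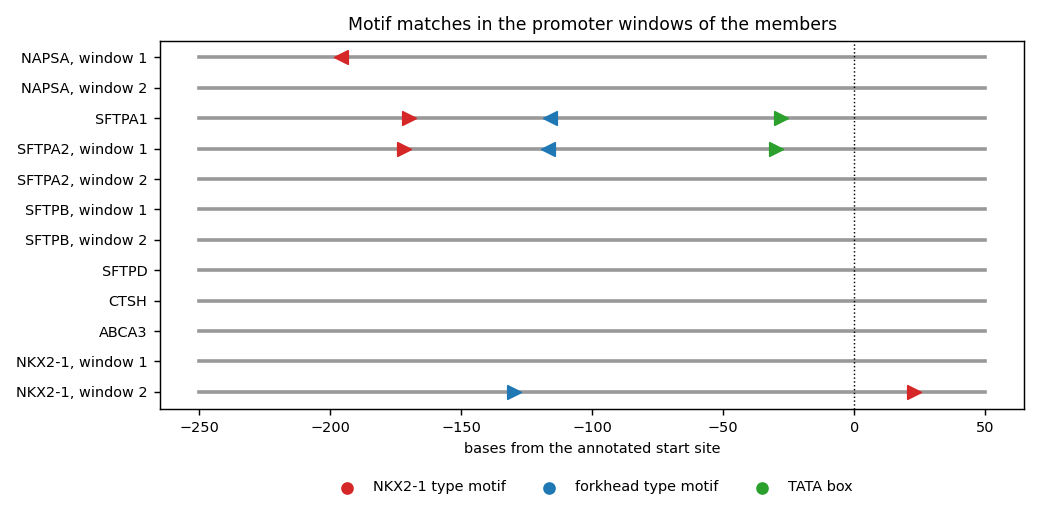
Motif matches in the 12 promoter windows, one row per window, against the distance in bases from the annotated start site (dotted line). Triangles point right where the match is on the strand of the gene and left where it is on the opposite strand. The rows of SFTPA1 and of the first SFTPA2 window carry the same 3 motifs at nearly the same distances.

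Over 48 h without EGF, 3 of the 8 tested members rose above their level at 0 h and none fell. NAPSA rose most, by 1.20 SCAN units, SFTPA1 by 0.837 and SFTPB by 0.169. A feature was called at an adjusted p under 0.05 in limma, with Benjamini-Hochberg adjustment over all tested features. Over all 12764 features, 9.47% were called higher and 9.38% lower at 48 h. The genes were picked with earlier results of these data known, so these shares are no test of the members as a set. Over 11 arrays the same 3 members were called, where 14.3% of all features were higher. The median difference of the 8 members was 0.103, against -0.00173 over all features. In RNA of a whole culture, more RNA per cell and more cells that express a gene cannot be told apart.

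NKX2-1, the regulator, was above background on every array. Its kept probeset read 1.48, 1.55 and 1.51 at 48 h, against 1.26, 1.45 and 1.44 at 0 h, and 1.51 and 1.54 at 24 h. The 48 h arrays lay above the 0 h arrays without overlap, but the first 0 h array widened the spread there. The difference of 0.131 at 48 h (SE 0.0494, 95% interval 0.0218 to 0.241) did not pass the threshold (limma, adjusted p = 0.0965). Over 11 arrays it was 0.0709 (limma, adjusted p = 0.141). The other probeset of the symbol read 0.442, 0.467 and 0.489 at 48 h, against 0.228, 0.207 and 0.371 at 0 h. That probeset rose by 0.197 (SE 0.0468) and passed (limma, adjusted p = 0.0137). The probesets under this symbol thus differ in the call at the same sign. Which strand or transcript each of them reads was not checked here.

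SFTPA1 encodes SP-A1, the collectin that is the most abundant protein of surfactant together with SP-A2. It read 1.06, 1.09 and 1.11 at 48 h, against 0.416, 0.176 and 0.153 at 0 h, and the 24 h arrays read 0.675 and 0.520. Every 48 h array was above every 24 h array, and both 24 h arrays were above all arrays of 6 h or earlier. The difference between 48 h and 0 h was 0.837 (SE 0.0664, 95% interval 0.690 to 0.984; limma, adjusted p = 1.11e-05), which placed it 5th from the top of 12764 differences. The spread at 0 h came from the first array. Without it and the 2 h array the difference was 0.921 (SE 0.0417; limma, adjusted p = 6.19e-10).

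SFTPA2 encodes SP-A2. Over the 13 arrays its lowest value was -0.319 and its highest -0.141, all below background, with a mean of -0.184 ± 0.0398 at 48 h (SD, n = 3) and -0.247 ± 0.0742 at 0 h (SD, n = 3). The probeset of SFTPA1 therefore moved while that of its near copy stayed under 0. The transcripts are alike, and how far the probes of one read the other is not known from the table.

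SFTPB encodes SP-B, the hydrophobic protein needed for the surface film. It read 0.243, 0.175 and 0.248 at 48 h, against 0.0954, 0.0328 and 0.0302 at 0 h, and the 48 h and 0 h arrays did not overlap. The difference of 0.169 (SE 0.0360, 95% interval 0.0897 to 0.249) passed (limma, adjusted p = 0.00766). The values remained close to background throughout, and the rise ranked 850th of 12764 differences from the top.

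The other surfactant proteins showed no call. SFTPC, which encodes the membrane protein SP-C made by type II cells alone, read 0.106, 0.181 and 0.150 at 48 h, against 0.0807, 0.101 and 0.0368 at 0 h. Its lowest 48 h array was 0.106 and its highest 0 h array 0.101, so the groups only just parted. The difference was 0.0730 (95% interval -0.00528 to 0.151; limma, adjusted p = 0.195). SFTPD, which encodes the collectin SP-D, lay between -0.0595 and 0.0988 on all 13 arrays, and its groups differed by 0.05002 (95% interval -0.0356 to 0.136; limma, adjusted p = 0.435). Both were near background, where a small rise and no rise are hard to separate with 3 arrays against 3.

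**Figure D2:**
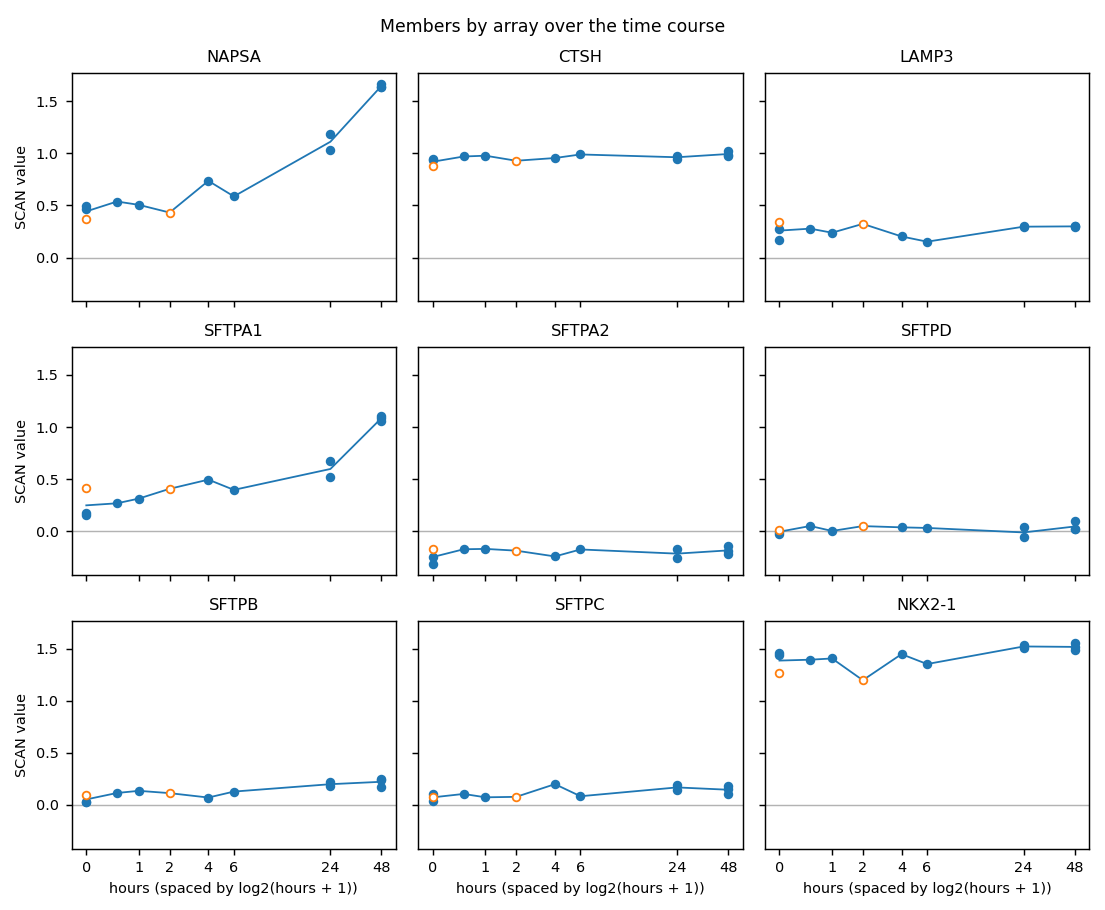
SCAN value of each of the 9 measured members on each of the 13 arrays against hours in starvation medium, on an axis spaced by log2(hours + 1). Points are arrays, open orange points are the first 0 h array and the 2 h array, lines join the means of the time points, and the grey line is background. NAPSA and SFTPA1 climb at 24 h and 48 h, SFTPA2 stays under 0, and the others keep within a narrow band.

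NAPSA encodes napsin A, an aspartic protease of lysosomes and lamellar bodies that processes the SP-B precursor. It read 1.64, 1.64 and 1.67 at 48 h, against 0.369, 0.491 and 0.470 at 0 h. No 48 h array came near a 0 h array, and the difference of 1.20 (SE 0.0469, 95% interval 1.101 to 1.308) was the largest rise of all 12764 tested features (limma, adjusted p = 2.48e-07). It was also the largest over 11 arrays, at 1.17 (SE 0.0409; limma, adjusted p = 1.84e-10). The probeset of NAPSB, a near copy of NAPSA, lay between -0.244 and -0.117 on all 13 arrays.

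CTSH, the aminopeptidase cathepsin H that acts on the SP-B and SP-C precursors, was above background throughout. It read 0.988, 1.02 and 0.973 at 48 h, against 0.877, 0.933 and 0.9496 at 0 h. The difference of 0.0738 (95% interval -0.00139 to 0.149) did not pass (limma, adjusted p = 0.172), although no 48 h array overlapped the 0 h arrays. LAMP3, the membrane glycoprotein DC-LAMP of lamellar bodies, read 0.303, 0.294 and 0.301 at 48 h, against 0.337, 0.273 and 0.166 at 0 h, and the groups overlapped. Its difference of 0.0407 (95% interval -0.0540 to 0.135; limma, adjusted p = 0.588) took the opposite sign without the third 0 h array, at -0.00570.

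**Figure D3:**
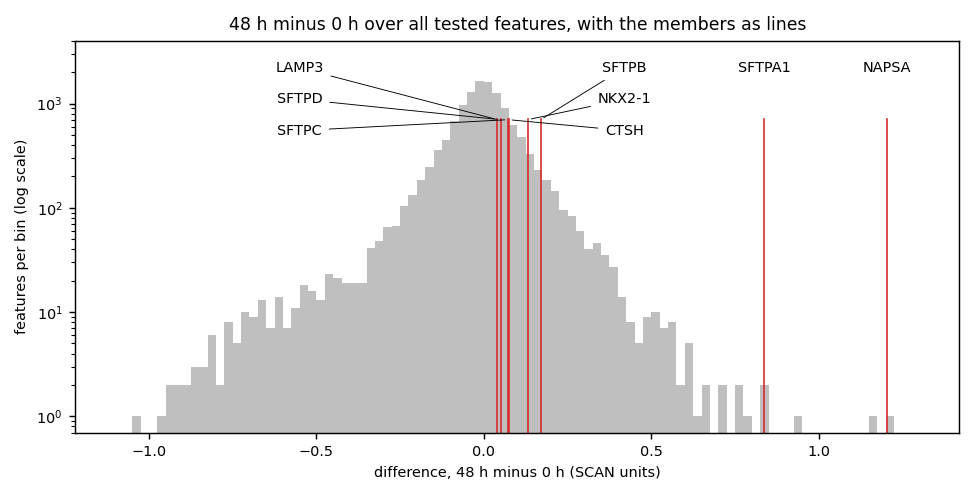
Number of features, on a log scale, by difference between 48 h and 0 h in SCAN units over 12764 tested features (grey bars), with the 8 tested members as red lines. NAPSA stands at the far right and SFTPA1 5th, while the other 6 members lie inside the bulk between 0.0407 and 0.169.

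The 2 stretches of 24 h were then compared. At 24 h against 0 h, NAPSA and SFTPA1 rose (2 of 8 members) and none fell, where 5.12% of all features were called higher and 2.22% lower. The median difference of the members was 0.115, against 0.0158 over all features. NAPSA averaged 1.11 ± 0.108 at 24 h (SD, n = 2) and 0.443 ± 0.0654 at 0 h (SD, n = 3), a rise of 0.668 (SE 0.0524; limma, adjusted p = 0.000264). SFTPA1 averaged 0.598 ± 0.109 at 24 h (SD, n = 2) and 0.248 ± 0.146 at 0 h (SD, n = 3), a rise of 0.349 (SE 0.0742; limma, adjusted p = 0.0199). The rise was 0.301 without the third 0 h array (limma, adjusted p = 0.0501), 0.272 without the first 24 h array (adjusted p = 0.206) and 0.427 without the other 24 h array (adjusted p = 0.0816), and in these fits it no longer passed. With 1 array left at 24 h, the SE was 0.0921, since that array is assumed to vary like those of the other time points. SFTPB read 0.182 and 0.216 at 24 h, above all earlier arrays. Its difference from 0 h of 0.146 (SE 0.0403) just missed the threshold (limma, adjusted p = 0.0551), and over 11 arrays, where 12.7% of features were called higher, it was 0.167 and passed (limma, adjusted p = 0.00713). SFTPC read 0.148 and 0.188 at 24 h, above its 0 h arrays, with a difference of 0.0953 that did not pass (limma, adjusted p = 0.198). The other 4 tested members differed by -0.00695 to 0.135 and did not pass either. The largest of these differences, 0.135 for NKX2-1, was 0.0751 over 11 arrays.

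Between 24 h and 48 h the same 2 genes rose again, and none of the members fell, where 0.517% of all features were called higher and 1.98% lower at 48 h. The median difference was 0.0272 over the members and -0.0209 over all features. NAPSA rose by a further 0.536 (SE 0.0524; limma, adjusted p = 0.000520) and SFTPA1 by 0.488 (SE 0.0742; limma, adjusted p = 0.00578), the first and the second of 12764 differences in that direction. For SFTPA1 the rise without the second of the 24 h arrays was 0.411 (SE 0.0921) and did not pass (limma, adjusted p = 0.104), again with a single 24 h array whose spread is taken from the other time points. SFTPB averaged 0.222 ± 0.0406 at 48 h (SD, n = 3) and 0.199 ± 0.0244 at 24 h (SD, n = 2), with a difference of 0.0232 (95% interval -0.0659 to 0.112). The other 5 tested members differed by -0.0223 to 0.0570 over this stretch and did not pass.

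**Figure D4:**
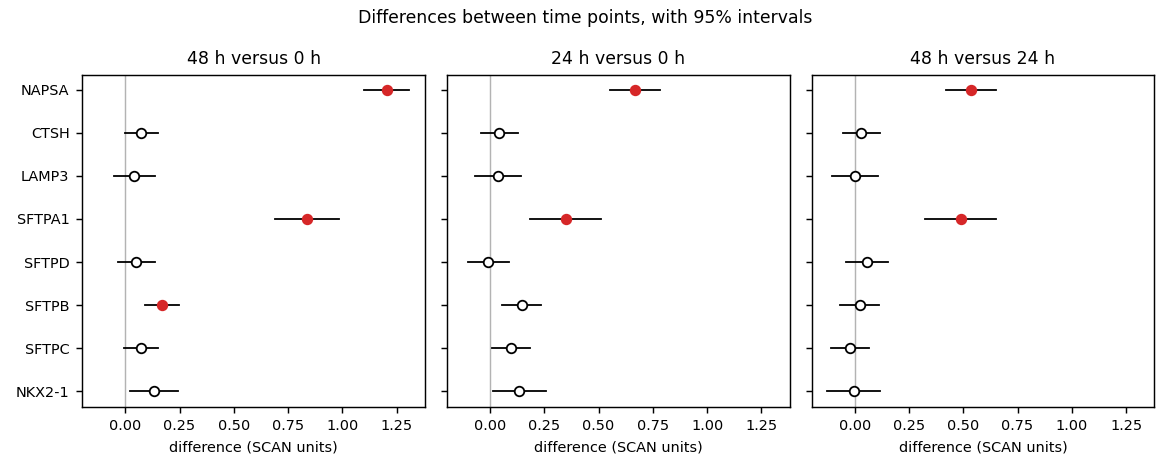
Difference between time points in SCAN units for the 8 tested members, with 95% intervals from limma as bars, for 48 h versus 0 h, 24 h versus 0 h and 48 h versus 24 h. Filled red points passed the threshold, and open points did not. NAPSA and SFTPA1 are filled in all 3 panels and SFTPB in the first.

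In the first 6 h each time point had 1 array. NAPSA read 0.538 at 0.5 h, 0.506 at 1 h, 0.432 at 2 h, 0.736 at 4 h and 0.587 at 6 h. SFTPA1 read 0.268, 0.313, 0.407, 0.495 and 0.397 at the same times, and SFTPB 0.115, 0.135, 0.113, 0.0708 and 0.128. The 4 h array was the highest of these for NAPSA and SFTPA1, while for SFTPB it was the lowest. The mean of the 4 h and 6 h arrays was above 0 h by 0.218 for NAPSA and 0.198 for SFTPA1, and neither passed in limma (adjusted p = 0.956 and 0.965). None of the 12764 features passed in that comparison (0% called), and 619 had an unadjusted p under 0.05. Over 11 arrays, 0.172% of features were called higher, and SFTPA1 was among them, higher by 0.281 at 4 h and 6 h (SE 0.0456; limma, adjusted p = 0.0229). That call rests on leaving out the first 0 h array, which read 0.416 for SFTPA1 against 0.176 and 0.153 on the others. The 6 h array, at 0.397, lay below the array left out. For the mean of 0.5 h and 1 h against 0 h, again 0% were called by limma, and 1152 features had an unadjusted p under 0.05. The members differed by -0.000701 to 0.0787 there. LAMP3 read 0.203 at 4 h and 0.152 at 6 h, the lowest of its time point means, although 1 array at 0 h read 0.166. The mean of these arrays differed from 0 h by -0.0811 (95% interval -0.187 to 0.0249; limma, adjusted p = 0.965), and by -0.0418 over 11 arrays.

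The shape of the time course was compared across genes by Pearson's r over the means of the 8 time points, of which 5 are single arrays. These r are descriptions, since all points share their arrays. NAPSA and SFTPA1 were alike at 0.962, NAPSA and SFTPB at 0.816, and SFTPA1 and SFTPB at 0.770. NKX2-1 reached 0.733 with NAPSA and 0.551 with SFTPA1, and SFTPD only 0.0711 and 0.230. The features most like NAPSA were CEACAM5 (r = 0.989), a cell adhesion glycoprotein of epithelial tumours, CD53 (0.984), a tetraspanin known from leukocytes, and IRF7 (0.984), an interferon regulatory factor. Of these, CEACAM5 averaged 0.637 at 48 h and 0.135 at 0 h. Those most like SFTPA1 were LMBRD1 (0.988), a lysosomal protein of cobalamin export, CTSC (0.985), the lysosomal dipeptidyl peptidase cathepsin C, and CXCL17 (0.983), a chemokine of mucosal surfaces that averaged 1.54 at 48 h and 0.597 at 0 h. For SFTPB they were ZNF517 (0.984), MXD4 (0.971) and TTC28 (0.966). Values of r above 0.95 were found for 72 features with NAPSA, 28 with SFTPA1 and 12 with SFTPB.

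Genes around the surfactant pathway were then counted in the same comparison of 48 h with 0 h. Of 23 further markers of type II cells, 12 had a probeset and 8 of these were above 0 on some array and tested. Of these 8, 2 rose and none fell, with a median difference of 0.0383. LPCAT1, the acyltransferase that makes the saturated phosphatidylcholine of surfactant, averaged 2.38 ± 0.00780 at 48 h and 2.19 ± 0.0204 at 0 h (SD, n = 3 each), higher by 0.186 (limma, adjusted p = 0.00173). It was higher at 24 h too, by 0.206 (limma, adjusted p = 0.00655). CHI3L1, a chitinase-like secreted glycoprotein, was higher at 48 h by 0.170 (limma, adjusted p = 0.0313). Of 13 genes of surfactant phospholipid synthesis and recycling, 4 rose and none fell, with a median of 0.0323. Beside LPCAT1 these were SCD, a fatty acid desaturase (0.187), STARD10, a phospholipid transfer protein (0.164), and PLIN2, a coat protein of lipid droplets (0.144).

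Of 12 genes of lamellar bodies and related lysosomal organelles, 4 rose and 2 fell, with a median of 0.00807. CD63 and LAMP2, membrane proteins of lysosomes, were higher by 0.234 (limma, adjusted p = 0.000874) and 0.193 (limma, adjusted p = 0.00325). HPS1 was higher by 0.136 and HPS3 lower, its values having fallen by 0.145. Both belong to the complexes that build lysosome-related organelles. Among 16 cathepsins and other lysosomal proteins, 5 rose and 1 fell, with a median of 0.0783. CTSC averaged 2.42 ± 0.0270 at 48 h and 2.08 ± 0.0334 at 0 h (SD, n = 3 each), a rise of 0.336 (limma, adjusted p = 6.41e-05). CTSF and CTSZ were higher by 0.182 and 0.151, and CTSV fell by 0.163.

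Of 20 lung epithelial transcription factors, 15 had a probeset and 12 were tested, of which none rose and 1 fell. That was TFCP2L1, a factor of the grainyhead family, which fell by 0.339 (limma, adjusted p = 0.000133). The median of this list was -0.0354. Markers of the type I cell, the thin cell of gas exchange, moved both ways. Of 14 listed, 9 had a probeset and 8 were tested, of which 1 rose and 3 fell, with a median of -0.00146. HOPX, a homeodomain-only protein, averaged 0.661 ± 0.0546 at 48 h and 0.150 ± 0.0602 at 0 h (SD, n = 3 each), a rise of 0.511 (limma, adjusted p = 1.31e-05). RTKN2 averaged 0.828 ± 0.0235 at 48 h and 1.43 ± 0.0690 at 0 h (SD, n = 3 each), and fell by 0.604 (limma, adjusted p = 3.34e-06). AKAP5 fell by 0.179 and EMP2 by 0.133.

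Of 15 airway markers, 4 had a probeset and 3 were tested, of which 1 rose and 1 fell. SPDEF, a factor of secretory cells, was higher by 0.177 (limma, adjusted p = 0.00786). FOXJ1, the factor of ciliated cells, fell by 0.150 (limma, adjusted p = 0.0469). None of the 5 epithelial genes named above passed, and their median was 0.137 over 13 arrays and 0.0364 over 11. Neither CD14 nor VWF passed, with differences of -0.0680 and -0.0169. The 11 other ABCA transporters on the list had no probeset under their symbol, like ABCA3. In each list the calls stand against the 9.47% of features called higher and 9.38% called lower. Over 11 arrays, where 14.3% of all features were called higher and 12.4% lower, 6 phospholipid genes rose and none fell, 5 lamellar body genes rose and 2 fell, and 7 cathepsins and lysosomal proteins rose and 1 fell. Of the transcription factors 1 rose and 3 fell there, and of the type I markers 2 rose and 3 fell.

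**Figure D5:**
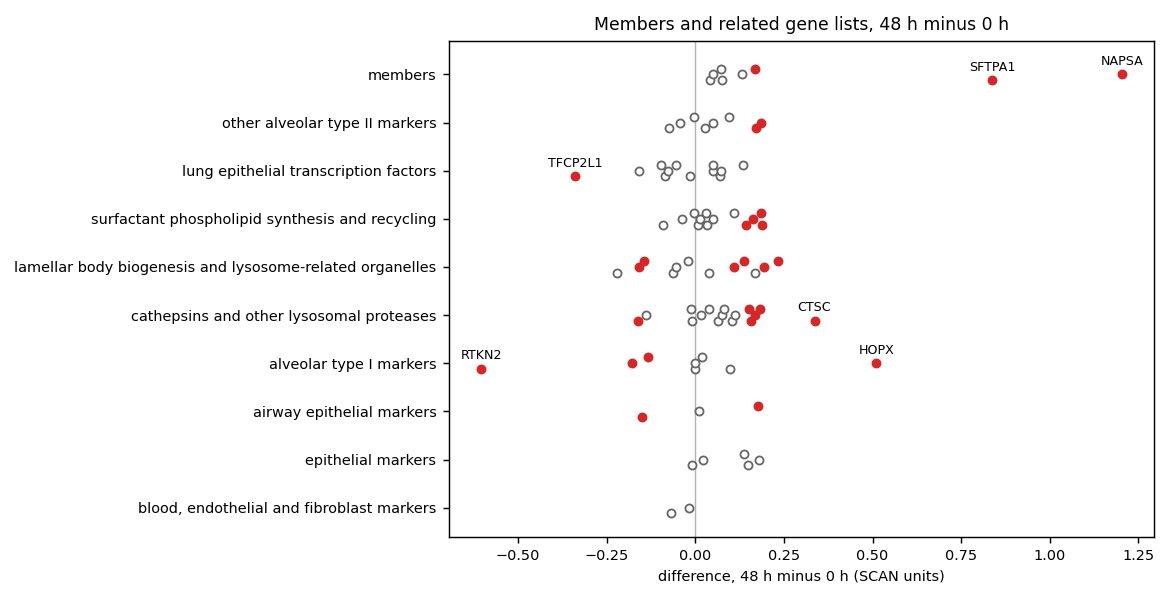
Difference between 48 h and 0 h in SCAN units for the members and each related gene list, one point per tested gene. Filled red points passed the threshold and open points did not, and names are given for called genes beyond 0.3 in either direction. NAPSA and SFTPA1 lie to the right of every gene of the lists, and the type I markers hold calls on both sides, with HOPX at 0.511 and RTKN2 at -0.604.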

How the data were processed

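RNA of H1975 cells in starvation medium was hybridised to 13 arrays. SCAN, the single-array standardisation that the authors ran, gave each deposited value as a score with background near 0, and probes were mapped with the NetAffx annotation. The genome build behind that annotation is not given in the sources used here. No scaling between arrays was added. Of 39937 features, 15426 had 1 gene symbol in the platform annotation, each matched by its Entrez ID to RefSeq, and 2662 of these had no positive value and were left out.

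Time points were compared with limma 3.58.1 (R 4.3.3) by a linear model with a level for each time point and moderated variances, two-sided, with Benjamini-Hochberg adjustment over 12764 features and a threshold of 0.05. Residual degrees of freedom were 5 over 13 arrays and 4 over 11. Precision is limited by how many arrays there are, with a median standard error of 0.0407 for 48 h against 0 h. No label says that the arrays of a time point come from separate cultures, so a p-value reflects only how these samples spread, which may be technical. No scan date or slide was at hand, so no batch was tested. The fit was also run on simulated data with the same spread on every array. The measured spread was unequal, with a median SD of 0.0560 at 0 h and 0.0329 at 48 h, which that run does not cover.

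The members, the gene lists and the tests were chosen with earlier results of these data known. Named were all members, at most 4 called genes a list, taken by adjusted p at 48 h against 0 h, and for each called member the 3 symbols most like it over time. Alternatives covered the features tested, scaling, variance model, array weights, the replicate block, the probeset and the arrays left out. Promoter windows were searched with Python 3.11.15, aligned with Biopython 1.88, and figures drawn with matplotlib 3.10.9.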

Additional observations from a re-analysis of the deposited data

How the results depend on the processing

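At 48 h against 0 h, 3 members were called higher and none lower whichever replicate was left out. Among named features with a mean of at least 0.2, 2 members were called higher, since SFTPB, SFTPC and SFTPD fell below that mean and were not tested. With replicates left out, 768 to 1831 of all features were called higher and 751 to 1587 lower, against 1209 and 1197. Without filter and naming 2079 and 1817 of 39937 features were called, and 1824 were higher with array weights and 1831 over 11 arrays. In every comparison the fit over 11 arrays equals the fit without 0 h replicate 1, so it is no separate check. At 24 h against 0 h, 1 to 3 members were higher and none lower when a replicate was left out, with 58 to 1615 features higher and 29 to 566 lower, against 653 and 283. Where a 24 h replicate was left out, the spread came from the other time points alone. Higher features numbered 1026 over the whole table, 392 after quantile normalisation (400 lower, 49.5% higher of those called against 69.8%), 1432 with array weights (574 lower) and 1615 over 11 arrays (566 lower). At 48 h against 24 h, 1 to 2 members were higher and none lower with a replicate left out, with 10 to 323 features higher and 62 to 946 lower, against 66 and 253. Higher features numbered 132 over the whole table, 326 with array weights (951 lower) and 323 over 11 arrays (946 lower), and after quantile normalisation the higher share of called features was 31.6% against 20.7%. At 4 h and 6 h, 0 to 1 members and 0 to 22 features were higher and 0 to 4 lower with a replicate left out; array weights gave 1 member, 9 higher and 2 lower, and 11 arrays gave 1 member, 22 higher and 4 lower. At 0.5 h and 1 h the ranges were 0 to 27 higher and 0 to 1 lower, with 16 and 1 by array weights and 27 and 1 over 11 arrays, and 0 members.

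Changes of sign were confined to differences that were not called. For NKX2-1 at 48 h against 24 h they gave 0.00482 after median subtraction, 0.0240 after quantile normalisation, 0.0389 by the other probeset and -0.0217 to 0.0120 with a replicate left out (0.0114 without 24 h replicate 3). For NKX2-1 at 4 h and 6 h they gave -0.0330 with array weights, -0.0183 with the replicate block and -0.0461 over 11 arrays (-0.0461 to 0.0487 with a replicate left out), and at 0.5 h and 1 h -0.0115 by quantile normalisation, -0.0329 with array weights and -0.0460 over 11 arrays (-0.0460 to 0.0488 with a replicate left out). LAMP3 gave 0.0472, 0.0386 and 0.00643 at 0.5 h and 1 h (array weights, 11 arrays, without 0 h replicate 2; -0.0471 to 0.0386 with a replicate left out), and -0.00570 to 0.07998 at 48 h and -0.00866 to 0.0770 at 24 h, lowest without 0 h replicate 3. SFTPD at 24 h gave 0.00336 over 11 arrays and -0.0549 to 0.0410 with a replicate left out, highest without 24 h replicate 3. At 0.5 h and 1 h without 0 h replicate 3, SFTPA1 gave -0.00546 and SFTPC -0.00152, against at most 0.126 and 0.0304 without another replicate. The causes were not tested.

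No pairing by replicate number was seen in the values at 48 h and 0 h. Deviations of same-numbered arrays correlated at -0.0787, -0.146 and -0.00853, and no 48 h array correlated best with its own number. At 24 h, replicate 1 correlated best with 0 h replicate 1, at 0.0675. Replicate 3 at 24 h did not correlate best with its own number, at -0.00193. Such correlations cannot show whether the samples were paired by design. With the replicate block, 296 features were higher and 147 lower at 24 h, and 32 and 155 at 48 h against 24 h, and it changed no call of a member.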
